A study of Arabidopsis thaliana with 12 samples.

Results

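The genes described here are 6 cell wall genes measured in whole roots of Arabidopsis thaliana: the alpha-expansins EXPA7 (AT1G12560), EXPA18 (AT1G62980) and EXPA8 (AT2G40610), the expansin-like gene EXLB1 (AT4G17030), the xyloglucan endotransglucosylase/hydrolase XTH20 (AT5G48070) and the TRICHOME BIREFRINGENCE-LIKE gene TBL38 (AT1G29050). They were picked by name, as the probe sets annotated to one of these genes alone, and make up 6 of the 13350 genes with a single-gene probe set, each with 1 probe set. They were picked with results of these arrays already known, EXPA8 for its fall with nitrate in Ws and EXPA7 and EXPA18 as root hair genes. Their changes are therefore a description, and the adjusted p-values printed with them are those of the fit to the whole array. The 12 single-colour Affymetrix arrays comprised 3 for each of 4 groups: the wild-type accession Ws in KCl, Ws in KNO3, and afb3-1, a mutant in the auxin receptor AFB3, in KCl and in KNO3. Seedlings of all groups had grown hydroponically for 14 days at 22 °C, with 16 h of light and 8 h of dark, on 3 mM sucrose and with ammonium succinate at 0.5 mM as the only source of nitrogen. On day 15 the salt, KNO3 or the control KCl at 5 mM, was given for 2 h from lights on, and the roots were then harvested.

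Plant cells enlarge by letting their walls yield to turgor. Expansins loosen the bonds between cellulose microfibrils and the polysaccharides around them in acidic walls, and XTH enzymes cut and rejoin xyloglucan, the main hemicellulose of the Arabidopsis primary wall. Many proteins of the TBL family add acetyl groups to wall polysaccharides. In Arabidopsis roots EXPA7 and EXPA18 are known for their expression in root hair cells, whose tip growth depends on local wall loosening. Expansin-like B proteins are a related family for which loosening activity is less well established.

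The signals are log2 values deposited by the authors, so that a difference of 1 is a doubling, and levels are compared only within a gene. Array medians lay between 3.78 and 3.92, and arrays of a group correlated with Pearson r of 0.973 to 0.996 across probe sets. Ws KCl replicate 3 stood somewhat apart. Its 24 spike-in control probe sets averaged 4.33, against 3.18 to 3.71 on the other 11 arrays, and its mean correlation with its own group was 0.975, the lowest of the 12. Results for Ws are given with and without it where it matters. AFB3 itself had no named probe set, so it gave no check of the genotype labels. Of the root cell type markers only EXPA7, EXPA18 and IRX15, a xylem wall gene, had a named probe set. The 4 measured photosynthesis genes (RCA, LHCB4.1, LHCB4.2 and LHCB4.3), markers of shoot tissue, were not at 0: their summed linear signal ran from 86.9 to 151.9 in Ws KCl, from 79.1 to 134.5 in Ws KNO3, from 113.5 to 338.9 in afb3-1 KCl and from 167.4 to 211.6 in afb3-1 KNO3. None of the 4 passed in any contrast, but no probe set at all passed in the contrasts between genotypes. In KNO3 the log2 difference, afb3-1 minus Ws, was 1.10 for RCA, 1.01 for LHCB4.1, 0.70 for LHCB4.2 and 0.21 for LHCB4.3. Their limma unadjusted p were 0.00933, 0.0518, 0.15 and 0.588. The part of these genes in the results below was not tested.

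Nitrate split the 6 genes. EXPA8, EXLB1 and TBL38 were lower in KNO3, XTH20 was higher, and the root hair expansins EXPA7 and EXPA18 did not pass the test in either direction. In Ws 4 of the 6 passed an adjusted p of 0.05 in limma (3 lower, 1 higher), against 2.89% of the 22746 probe sets tested (1.05% lower, 1.85% higher). In afb3-1 3 of the 6 passed (2 lower, 1 higher), against 2.76% (0.967% lower, 1.79% higher). On the individual arrays the KNO3 signals of EXPA8, EXLB1, TBL38 and XTH20 did not overlap the KCl signals in either genotype, a separation shown by 17.3% of all probe sets in Ws and 17% in afb3-1. Since these genes were chosen with the same changes in view, the counts carry no weight as support. The median change of the 6 was −0.57 in Ws and −0.65 in afb3-1, and that of all probe sets was −0.03 and −0.00. The arrays come from whole roots, so fewer cells of a type and less RNA per cell cannot be told apart.

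**Figure D1:**
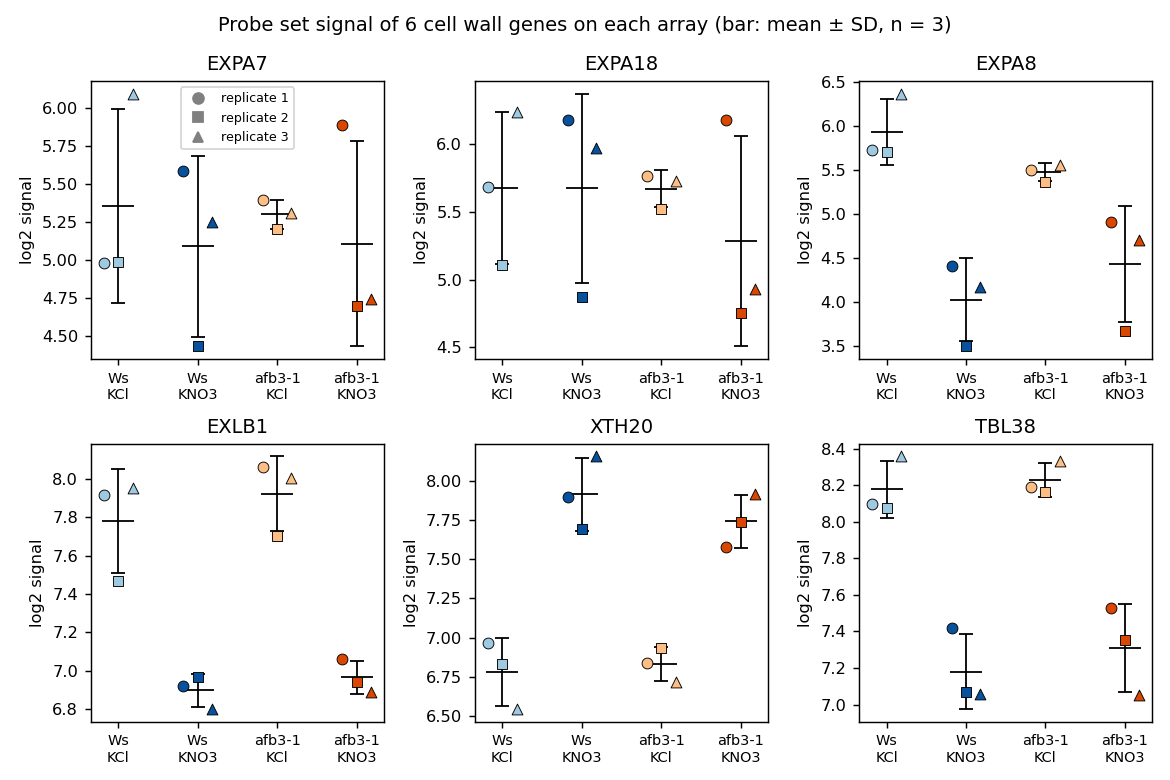
Log2 probe set signal (vertical axes, a separate scale for each gene) of the 6 cell wall genes on each of the 12 arrays by group. Symbols mark the replicate number, and the horizontal and vertical bars the mean ± SD of 3 arrays. EXPA8, EXLB1 and TBL38 are lower and XTH20 higher in KNO3 in both genotypes. EXPA7 and EXPA18 spread widely within every group except afb3-1 KCl.

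EXPA8, an alpha-expansin, had the largest change of the 6. Its signal was 5.73, 5.70 and 6.37 in Ws KCl and 4.41, 3.50 and 4.17 in Ws KNO3, in order of replicate number. Every KNO3 array lay below every KCl array. The means were 5.94 ± 0.38 and 4.03 ± 0.47 (SD, n = 3), a log2 change of −1.91 ± 0.32 (SE; 95% interval −2.61 to −1.21) or a 3.75-fold fall (limma adjusted p = 0.00682). Without Ws KCl replicate 3, its highest array, the change was −1.69 (limma adjusted p = 0.0234).

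In afb3-1 EXPA8 was 5.51, 5.36 and 5.56 in KCl and 4.91, 3.68 and 4.71 in KNO3. The KCl arrays were close together, and among the KNO3 arrays replicate 2 lay about 1 log2 unit below the others. The means were 5.48 ± 0.10 and 4.43 ± 0.66 (SD, n = 3), and the change was −1.05 ± 0.32 (SE; 95% interval −1.75 to −0.34). This did not pass over all probe sets (limma adjusted p = 0.15). Without afb3-1 KNO3 replicate 2 the change was −0.67, and over all single arrays left out it ranged from −1.28 to −0.67. Replicate 2 was also the lowest array of Ws KNO3.

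EXLB1, the expansin-like gene, was 7.92, 7.47 and 7.95 in Ws KCl and 6.92, 6.97 and 6.80 in Ws KNO3. Its 3 nitrate values lay within 0.17 of each other, and all were below the lowest KCl value. The means were 7.78 ± 0.27 and 6.90 ± 0.09 (SD, n = 3), a log2 change of −0.88 ± 0.15 (SE) or a 1.84-fold fall (limma adjusted p = 0.00612). When only the 6 Ws arrays were fitted, the same change had an adjusted p of 0.0565 in limma. In afb3-1 the signal was 8.06, 7.70 and 8.00 in KCl and 7.06, 6.94 and 6.89 in KNO3, again without overlap. Here it fell 1.94-fold, by 0.96 ± 0.15 (SE) on the log2 scale (limma adjusted p = 0.00348).

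TBL38, whose own activity on the wall was not measured, was 8.10, 8.08 and 8.36 in Ws KCl and 7.42, 7.07 and 7.06 in Ws KNO3. In afb3-1 it was 8.19, 8.16 and 8.33 in KCl and 7.53, 7.35 and 7.05 in KNO3. The genotypes overlapped in each salt, and the lowest KCl array was above the highest KNO3 array of either. TBL38 fell 2.00-fold in Ws, with a log2 change of −0.998 ± 0.148 (SE, limma adjusted p = 0.00304), and 1.89-fold in afb3-1, with −0.92 ± 0.15 (SE, limma adjusted p = 0.00521).

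XTH20, which acts on xyloglucan, went the other way. Its signal was 6.97, 6.83 and 6.54 in Ws KCl and 7.89, 7.69 and 8.16 in Ws KNO3. In afb3-1 it was 6.84, 6.93 and 6.72 in KCl and 7.58, 7.74 and 7.91 in KNO3. All 6 KNO3 arrays lay above all 6 KCl arrays. XTH20 rose 2.19-fold in Ws, by 1.13 ± 0.15 (SE) on the log2 scale (limma adjusted p = 0.00161), and 1.88-fold in afb3-1, by 0.91 ± 0.15 (SE, limma adjusted p = 0.00628). Without Ws KCl replicate 3, where it was lowest, the rise in Ws was 1.01 (limma adjusted p = 0.00532).

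**Figure D2:**
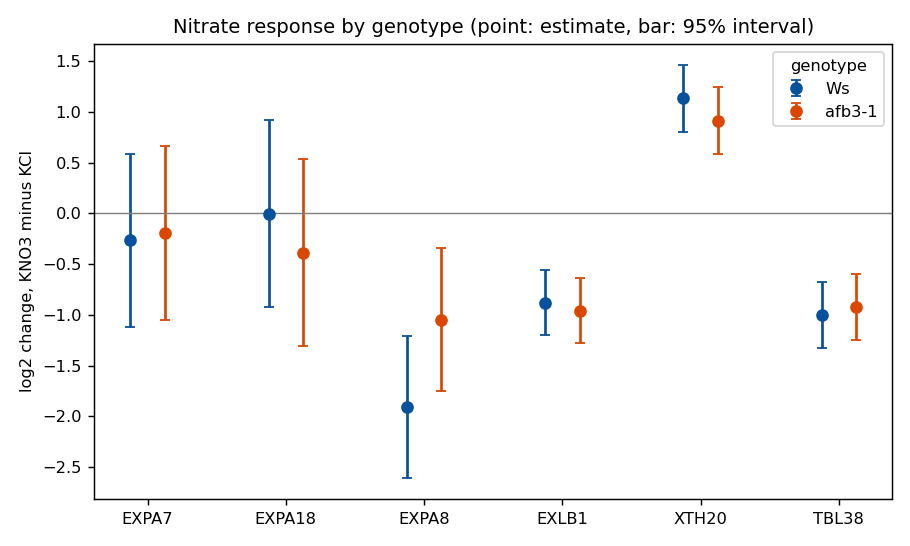
Log2 change between KNO3 and KCl (vertical axis) for each of the 6 genes in Ws and afb3-1. Points are estimates of the linear model and bars their 95% intervals. The intervals of EXPA8, EXLB1 and TBL38 lie below 0 and that of XTH20 above 0 in both genotypes, and those of EXPA7 and EXPA18 span 0. They are not adjusted for the number of probe sets, and EXPA8 in afb3-1 did not pass (limma adjusted p = 0.15).

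The root hair expansins, unlike these 4, passed in neither genotype. The genes were not tested against each other, and the EXPA7 intervals include the changes of EXLB1 and TBL38 in both genotypes. EXPA7 was 4.98, 4.99 and 6.10 in Ws KCl and 5.59, 4.43 and 5.25 in Ws KNO3. In afb3-1 it was 5.40, 5.21 and 5.31 in KCl and 5.89, 4.70 and 4.74 in KNO3. KCl and KNO3 arrays overlapped in both genotypes. The change was −0.27 (95% interval −1.12 to 0.59) in Ws and −0.19 (−1.05 to 0.66) in afb3-1, with limma adjusted p of 0.837 and 0.943. The sign turned when single arrays were left out. In Ws the value was 0.10 without KCl replicate 3 and 0.06 without KNO3 replicate 2, and in afb3-1 it was 0.01 without KNO3 replicate 2.

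EXPA18 was 5.68, 5.11 and 6.24 in Ws KCl and 6.18, 4.87 and 5.97 in Ws KNO3. In afb3-1 it was 5.77, 5.52 and 5.73 in KCl and 6.18, 4.75 and 4.93 in KNO3. The groups again overlapped, with changes of −0.00 (95% interval −0.93 to 0.92) in Ws and −0.39 (−1.31 to 0.54) in afb3-1 (limma adjusted p = 0.998 and 0.86). With single arrays left out the value in Ws ranged from −0.29 without KCl replicate 2 to 0.40 without KNO3 replicate 2, and it was 0.28 without KCl replicate 3. In afb3-1 it ranged from −0.83 without KNO3 replicate 1 to −0.12 without KNO3 replicate 2. For EXPA7 and EXPA18 in both genotypes the lower bounds ran from −1.31 to −0.93 and the upper bounds from 0.54 to 0.92. The arrays therefore do not show that nitrate left EXPA7 and EXPA18 unaffected.

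EXPA7 and EXPA18 varied together from array to array, without separating the salts or the genotypes. Their spread was smallest in afb3-1 KCl (SD 0.09 for EXPA7 and 0.13 for EXPA18). Both were highest on Ws KCl replicate 3 and on the KNO3 arrays numbered 1, and both were lowest on the KNO3 arrays numbered 2 and on afb3-1 KNO3 replicate 3. Over the 12 arrays their signals had a Pearson r of 0.911 and a Spearman rho of 0.951, and 0.901 as Pearson r without the 2 arrays farthest from the median of EXPA7. Arrays of Ws and afb3-1 with the same number shared deviations across all probe sets, so the 12 are not independent. Over the 6 means of such pairs the Pearson r was 0.966 (two-sided exact permutation p = 0.00417, n = 6) and the Spearman rho 0.943 (exact permutation p = 0.0167, n = 6). Without the pairs farthest from the median of EXPA7, the KNO3 arrays numbered 1 and 2, the Pearson r over the remaining 4 was 0.883. This was the only pair of genes given a test, and the pairing of arrays behind the means comes from the data. Among pairs of the 6 genes its deviations from the group means correlated most (Pearson r 0.948). The permutation treats the means of both salts as exchangeable. Other genes followed EXPA7 more closely than EXPA18 did over the 12 arrays: AT5G17820 (Pearson r 0.944), GSTU28 (0.937) and AT3G28320 (0.937). How often other gene pairs reach such values was not computed, so the p-values do not set this pair apart from variation shared across probe sets.

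**Figure D3:**
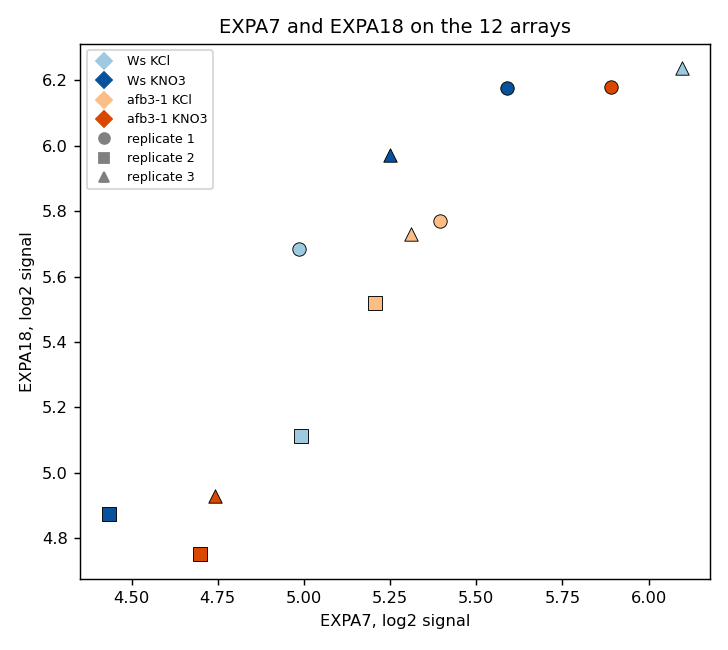
Log2 signal of EXPA7 (horizontal axis) against EXPA18 (vertical axis) on the 12 arrays. Colour marks the group and shape the replicate number. The KNO3 arrays numbered 1 and Ws KCl replicate 3 sit at the upper right and the KNO3 arrays numbered 2 at the lower left, and the colours are mixed.

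EXPA8 and TBL38 shared part of that variation. EXPA8's deviations from the group means correlated with those of EXPA7 and EXPA18 by a Pearson r of 0.822 and 0.830 over the 12 arrays, against 0.241 with EXLB1 and −0.08 with XTH20. Those of TBL38 correlated with EXPA7 by 0.770, with EXPA18 by 0.696 and with EXPA8 by 0.405, but also with EXLB1 by 0.456 and with XTH20 by −0.622. Those of EXLB1 correlated with EXPA7 by 0.364 and with EXPA18 by 0.443. In KNO3 the EXPA8 arrays numbered 1 were the highest and those numbered 2 the lowest in both genotypes, the same order as for EXPA7. EXLB1, XTH20 and TBL38 had SDs within groups of at most 0.27, 0.23 and 0.24, against up to 0.66 for EXPA8. The correlations are a description of these arrays, which share treatment, replicate number and normalization.

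The level of each gene was next compared between genotypes. None of the 6 passed a test of afb3-1 against Ws in KCl or in KNO3, nor of the difference between their responses to nitrate, by limma adjusted p, nor, in the fit that does not pair same-numbered arrays, at an unadjusted p of 0.05. Over all 22746 probe sets these contrasts called 0% each, also without variance moderation. In that fit, at an unadjusted p under 0.05, there were 602 probe sets (2.65%) in KCl, 538 (2.37%) in KNO3 and 664 (2.92%) for the difference of the responses. For the difference, afb3-1 minus Ws, the estimate was −0.08 (95% interval −0.53 to 0.37) for EXLB1, 0.08 (−0.38 to 0.54) for TBL38 and −0.22 (−0.69 to 0.25) for XTH20. Differences in response beyond these bounds, of about 0.5 to 0.7 log2 units, lie outside the intervals for these 3 genes. For EXPA7 and EXPA18 the intervals were wider, −1.14 to 1.28 around 0.07 and −1.69 to 0.92 around −0.38. All of these intervals come from the fit that does not pair same-numbered arrays. With those arrays paired within a salt the 95% interval was −0.39 to 0.24 for EXLB1 and −0.25 to 0.41 for TBL38. It was −0.58 to 0.14 for XTH20, −0.63 to 0.77 for EXPA7 and −1.05 to 0.28 for EXPA18.

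EXPA8 had the largest difference of the 6. From high to low its groups were Ws KCl, afb3-1 KCl, afb3-1 KNO3 and Ws KNO3. The first pair did not overlap on the arrays, which held for 6.85% of all probe sets in that comparison, and for 4.38% with afb3-1 lower. In KCl afb3-1 was lower than Ws by point estimate (−0.46 ± 0.32 SE), with differences of −0.23, −0.34 and −0.81 between arrays numbered 1, 2 and 3. In KNO3 it was higher by point estimate (0.40 ± 0.32 SE), with differences of 0.50, 0.18 and 0.53. The signs were thus opposite in the 2 salts for all 3 numbers, a pattern that 2.62% of all probe sets showed in this direction and 5.25% in either. The difference of the nitrate responses was 0.86 (95% interval −0.13 to 1.86) and did not pass (limma adjusted p = 0.999, unadjusted p = 0.0829). With same-numbered arrays paired within a salt the estimate was the same and its 95% interval was 0.44 to 1.28 (limma unadjusted p = 0.000997, adjusted p = 0.473). In that paired fit the unadjusted p of EXPA8 was 0.00627 in KCl and 0.0127 in KNO3 by limma, and no other of the 6 genes was under 0.05 in the 3 contrasts. Of all probe sets 9.11% were under 0.05 for the difference of the responses, 7.1% in KCl and 7.72% in KNO3, and none passed after adjustment. The point estimates also moved with single arrays. The KCl difference was −0.24 without Ws KCl replicate 3, and the KNO3 difference ranged from 0.14 without Ws KNO3 replicate 2 to 0.78 without afb3-1 KNO3 replicate 2. A different response of EXPA8 in afb3-1 thus did not pass over all probe sets in either fit.

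**Figure D4:**
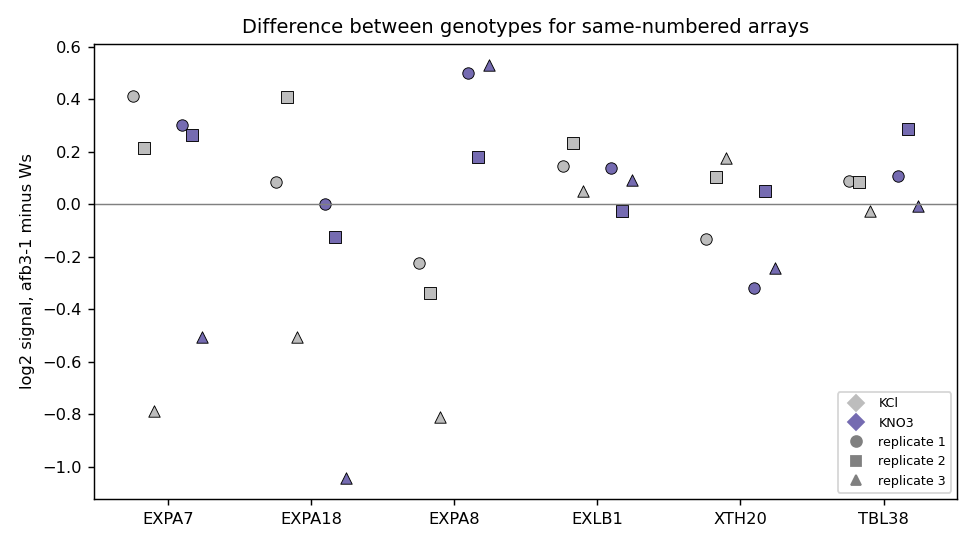
Difference in log2 signal between afb3-1 and Ws (vertical axis) for arrays with the same replicate number, by gene and salt. For EXPA8 the 3 KCl differences lie below 0 and the 3 KNO3 differences above 0. For each of the other genes at least 1 salt has differences on both sides of 0.

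For EXLB1, TBL38 and XTH20, as for EXPA8, both groups of one salt lay above both groups of the other. EXLB1 ran from afb3-1 KCl (7.92 ± 0.19) through Ws KCl and afb3-1 KNO3 to Ws KNO3, and TBL38 had the same order, from 8.23 ± 0.09 in afb3-1 KCl to 7.18 ± 0.21 in Ws KNO3 (SD, n = 3). XTH20 was highest in Ws KNO3 (7.91 ± 0.23), then in afb3-1 KNO3 (7.74 ± 0.17), afb3-1 KCl (6.83 ± 0.11) and Ws KCl (6.78 ± 0.22; SD, n = 3). In each of these 3 genes the groups of a salt overlapped and the middle step, between salts, did not. EXPA7 group means lay between 5.09 and 5.36 and EXPA18 means between 5.29 and 5.68, with all neighbouring groups overlapping.

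When the response was averaged over genotypes, 6 arrays against 6, EXPA8 (−1.48), EXLB1 (−0.92), TBL38 (−0.96) and XTH20 (1.02) passed, against 6.66% of all probe sets (3.19% lower, 3.47% higher). The 2 sets of 6 arrays did not overlap for these 4, as for 5.51% of all probe sets. That fit takes same-numbered arrays of the 2 genotypes as independent, although they deviated together. With each such pair averaged first, which leaves 3 values a salt, 2.35% of probe sets passed. EXLB1, TBL38 and XTH20 then had limma adjusted p of 0.0201, 0.0179 and 0.0122, while EXPA8 no longer passed (limma adjusted p = 0.0577).

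The 6 genes were set against 55 other measured cell wall genes of 7 lists. In Ws 1 of the 55 passed, against 2.89% of all probe sets, and in afb3-1 1 of the 55, against 2.76%. Both were lower, and the median changes of the 55 were −0.10 and −0.11. None passed the test of a difference in response between genotypes by limma, and 2 of the 55 had an unadjusted p under 0.05 there, against 2.92% of all probe sets. Among the 7 other alpha-expansins none passed, and the smallest p belonged to EXPA20 (−0.48 in Ws, −0.44 in afb3-1, limma adjusted p = 0.349 and 0.481). Among the 4 beta-expansins, a related family, none passed either. The closest were EXPB2 in Ws (−0.88, limma adjusted p = 0.33) and EXPB3 in afb3-1 (−0.54, limma adjusted p = 0.257). Of the 3 expansin-like A genes EXLA1 was closest, at −0.48 in Ws and −0.42 in afb3-1 (limma adjusted p = 0.207 and 0.349).

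None of the 9 other XTH family genes passed in either genotype. The closest was XTH16, whose change of −1.31 in Ws and −1.45 in afb3-1 was opposite in sign to that of XTH20 (limma adjusted p = 0.0982 and 0.0699). XTH19, a close relative of XTH20, was at −0.43 and −0.69 and XTH18 at −0.14 and −0.27. In the TBL family, 1 of the 21 other genes passed in each genotype. TBL41 fell by 1.21 ± 0.28 (SE) in Ws (limma adjusted p = 0.044) and was at −0.87 in afb3-1. TBL21 fell by 0.69 ± 0.11 (SE) in afb3-1 (limma adjusted p = 0.00372) and was at −0.32 in Ws.

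No gene passed among the 4 of pectin modification, where ADPG1, a polygalacturonase, was closest in Ws (−0.17) and ATPMEPCRB, a pectin methylesterase, in afb3-1 (−0.38). Both are dim, in the lowest tertile of signals, where changes can be understated. No gene passed among the 7 of cellulose and xyloglucan synthesis. CSLC12, of the family that builds the xyloglucan backbone, was closest at −0.84 in Ws and −0.78 in afb3-1 (limma adjusted p = 0.0521 and 0.078). Averaged over genotypes 7 of the 55 passed, against 6.66% of all probe sets. Of the 7, 6 were lower (XTH16 −1.38, TBL41 −1.04, CSLC12 −0.81, XTH19 −0.56, TBL21 −0.51 and EXLA1 −0.45) and 1 higher (TBL16, 0.48). With same-numbered arrays averaged first none of the 55 passed by limma, against 2.35% of all probe sets, with adjusted p of 0.054 for TBL21 and 0.0801 for TBL16.

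**Figure D5:**
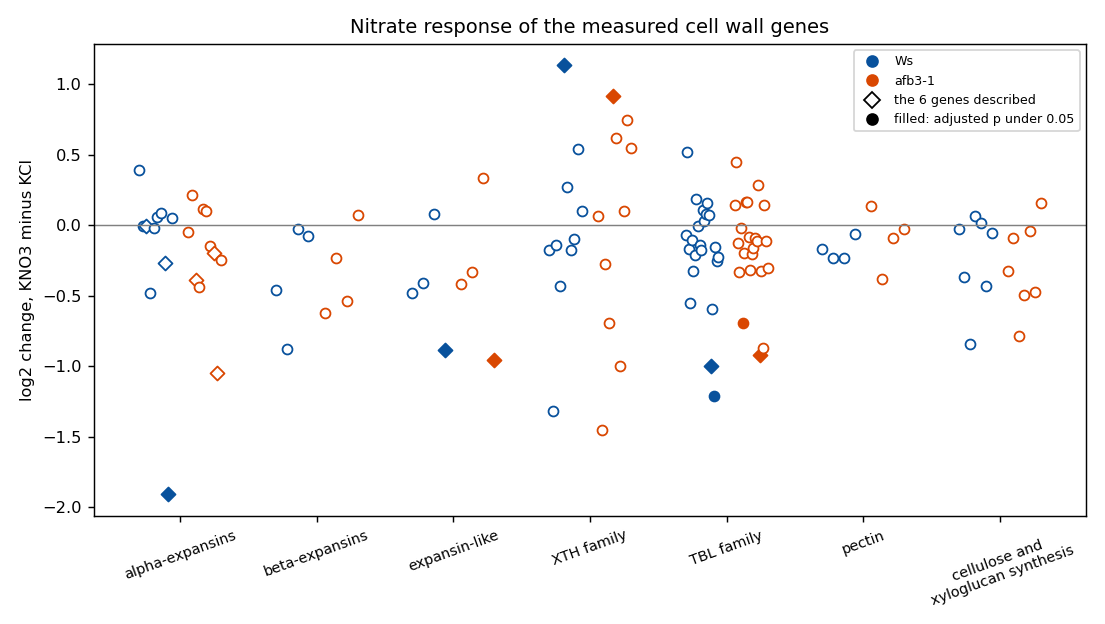
Log2 change between KNO3 and KCl (vertical axis) of each measured cell wall gene, by family and genotype. Diamonds are the 6 genes described and filled symbols passed an adjusted p of 0.05. Most genes lie near 0, and XTH20 is the only one past the threshold above 0.

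The genes most like each of the 6 over the 12 arrays were sought among 8199 others whose mean was above the lowest tertile, by Pearson r, as a description with no test. For EXPA7 they were AT5G17820, a class III peroxidase (0.944), GSTU28, a tau class glutathione transferase (0.937), and AT3G28320 (0.937). AT5G17820 was also among the 3 most like EXPA18 (0.954), after AT5G36270 (0.973) and AT3G20460 (0.967). For EXPA8 they were PCME, a prenylcysteine methylesterase (0.959), STR18, a sulfurtransferase (0.958), and AT5G02420 (0.956).

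For EXLB1 the list was MYBC1, a MYB-related transcription factor (0.972), FATB, an acyl carrier protein thioesterase of fatty acid synthesis (0.969), and AT3G03150 (0.969). For TBL38 it was AT1G64590 (0.978), AT5G45650, a subtilisin-like protease (0.974), and AT1G15740 (0.973). For XTH20 it was AT5G09850 (0.986), AT5G08010 (0.981) and AT1G19600 (0.981). For these 4 responsive genes the likeness largely restates a shared difference between salts. Once group means were removed, the most like genes were AT2G40230 for EXPA7 (0.983), AT5G36270 for EXPA18 (0.982), AT1G61740 for EXPA8 (0.976), FATB for EXLB1 (0.934), AT4G18280 for TBL38 (0.975) and AT3G26890 for XTH20 (0.957). AT5G36270 and AT5G17820 for EXPA18, FATB for EXLB1 and AT1G64590 for TBL38 were among the 3 most like genes by both measures.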

How the data were processed

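Root RNA was biotin-labelled with an Affymetrix 3′ IVT kit, per the labels' protocols. The authors deposited log2 probe set signals (0.401 to 12.12). The sources used here do not name their background correction, normalization or summarization, so none was undone or repeated. Of 22810 probe sets, 64 controls were left out and 22746 tested, 13513 of them with 1 gene in the platform annotation, 13436 of which matched TAIR10.1 RefSeq names. The probe set with the highest mean stood for a gene with several. No coordinates are given, since no build is named. The 4 group means were estimated together from the 12 arrays by limma 3.58.1 (R 4.3.3, 8 residual and 3.20 prior degrees of freedom), two-sided, with Benjamini-Hochberg adjustment over 22746 probe sets and a threshold of 0.05. The code was tested on simulated data. Groups came from sample titles, and the labels call the replicates biological and independent.

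The members and lists were chosen with earlier results of these data known. Cell wall lists were name patterns. The rule named every list gene past the threshold, or the one with the smallest p, and for each member the 3 most similar genes. Within a salt, Ws and afb3-1 arrays of the same number shared their deviations from the group means (Pearson r 0.301 to 0.661, 6 of 6 pairs above 0.1), so numbers paired arrays for genotype contrasts. This pairing comes from the data. Across salts r ran from −0.28 to 0.542, so nitrate contrasts were taken as unpaired. Alternatives were quantile normalization, median centring, a filter on the dimmest tertile (mean up to 2.32), replicate blocks, a mean-variance trend, no moderation, fitting the compared groups alone and leaving out each array. Averaging same-numbered arrays and leaving out both KCl arrays numbered 3 were added after the data were seen. The number of arrays limits the precision.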

Additional observations from a re-analysis of the deposited data

How the results depend on the processing

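Under the alternatives, 714 values of the 6 genes were recomputed. All 714 moved by less than the spread between replicates, no called change turned its sign, and 3 calls differed. The small moves were largely fixed in advance. With equal groups, blocks, trend, moderation and the choice of groups fitted change the error and not the estimate. Leaving out 1 of 3 arrays moves a group mean by only part of that group's spread. The differing calls are therefore the more telling result. EXLB1 in Ws was lost when only the Ws arrays were fitted (limma adjusted p = 0.0565), EXPA8 averaged over genotypes was lost with same-numbered arrays averaged first (limma adjusted p = 0.0577), and EXPA8 in afb3-1 passed with the replicate number as a block (limma adjusted p = 0.0272). Replicate numbers did not pair KCl with KNO3 arrays, so that last value rests on a shared number only. The same replicate block raised the cell wall genes called from 5 to 8 in Ws and from 4 to 8 in afb3-1. The pairing of genotypes, as a block within a salt, changed no call of the 6 genes in the genotype contrasts. For EXPA8 it gave limma adjusted p of 0.639 in KCl, 0.489 in KNO3 and 0.473 for the difference of the responses.

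Leaving out single arrays kept the calls of the 4 responsive genes in Ws (limma adjusted p up to 0.0389) and of EXLB1, TBL38 and XTH20 in afb3-1 (up to 0.0391). EXPA8 in afb3-1 stayed above 0.05 (0.109 to 0.38) and so was not called. Probe sets called ranged from 370 to 680 in Ws, with 370 without Ws KNO3 replicate 3, and from 380 to 772 in afb3-1, with 387 and 396 without KCl replicate 1 or 2 of afb3-1 and 380 without its KNO3 replicate 3. Cell wall genes called ranged from 4 to 8 in Ws and from 4 to 7 in afb3-1, in both cases highest without Ws KNO3 replicate 1. Only the Ws arrays gave 338 probe sets and 3 cell wall genes, no moderation gave 400 in Ws and 416 in afb3-1, and averaging same-numbered arrays first gave 534 and 3, against 1515 and 11. The causes were not tested.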

Other observations

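The signals of 3 other cell wall genes, picked after their values were seen, separated the KNO3 arrays numbered 1 from the rest of the KNO3 arrays in both genotypes. XTH16 was 5.29 in Ws and 4.86 in afb3-1 on the arrays numbered 1, and between 3.80 and 3.93 on the other 4 KNO3 arrays. TBL41 was 4.16 in both genotypes on the arrays numbered 1, and between 3.12 and 3.43 on the others. CSLC12 was 3.20 and 3.10, against 2.53 to 2.63. On all 6 KCl arrays XTH16 lay between 5.44 and 5.78 and TBL41 between 4.30 and 4.94. EXPA7, EXPA18, EXPA8 and TBL38 were also highest on the arrays numbered 1 among the KNO3 arrays of each genotype, whereas XTH20 and EXLB1 showed no such split.

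Among the abundant alpha-expansins, EXPA4 had point estimates of 0.09 in Ws and −0.15 in afb3-1 (SE 0.16) and EXPA15 of 0.39 and −0.05 (SE 0.21). None passed by limma (adjusted p = 0.486 for EXPA15 in Ws). Every Ws KNO3 array of EXPA15 lay above every Ws KCl array, but 17.3% of all probe sets were separated there in one direction or the other.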
